A study of Rattus norvegicus with 20 samples.

Results

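The soleus muscle of rats whose sciatic nerve had been entrapped for 6 months was compared with the soleus of a sham-operated control. The comparison held 4 single-colour Agilent rat miRNA arrays, 3 of entrapped rats and 1 of sham, out of 20 arrays in all, of which 10 were of soleus. They were chosen from their labels alone, as the entrapment arrays without later decompression and the only sham array of this muscle. The animals were adult male Sprague-Dawley rats. In the entrapment group a silastic tube that did not constrict the nerve was placed around the sciatic nerve. The Methods do not describe the sham operation, and the label says only that it was a control. The Methods give 3 rats to each group, but the labels give 1 sham array, and neither states whether it holds RNA of 1 rat or of a pool. Arrays are called entrapment 1, 2 and 3 by the replicate number in their labels. The other soleus groups, used for the shared scaling and the spread, were rats denervated for 6 months by removing a piece of the nerve, and rats entrapped for 6 months and decompressed for 3 months.

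MicroRNAs are small RNAs that pair with messenger RNAs, mainly through bases 2 to 8 at their 5′ end, called the seed, and lower the output of those messages. Each is cut from a hairpin precursor, which can give a mature strand from either arm, and many are transcribed together in clusters. Skeletal muscle carries its own set, the myomiRs, led by miR-1, miR-133a, miR-133b and miR-206. The soleus is a slow, postural muscle that needs its nerve to keep its mass and fibre type.

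The mature sequences below are those of miRNAs that the comparison turned on, from RefSeq with positions on the GRCr8 assembly, printed 5′ to 3′ with the seed in capitals. The first set was lower after entrapment under every scaling tried and is shown because its calls did not turn on the scaling.
miR-494: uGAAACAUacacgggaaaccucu
miR-329: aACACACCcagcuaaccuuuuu
miR-341: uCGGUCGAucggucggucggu
miR-188: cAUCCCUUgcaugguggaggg
miR-743a: gAAAGACGccaaacuggguaga
miR-878: gCAUGACAccauacuggguaga
miR-139-3p: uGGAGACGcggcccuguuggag
miR-125a-3p: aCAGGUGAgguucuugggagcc
miR-324-3p: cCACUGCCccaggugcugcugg
miR-874: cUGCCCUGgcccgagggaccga
miR-193*: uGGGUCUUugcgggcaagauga

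Of these, miR-494 lies at chr6:134550163-134550185 and miR-329 at chr6:134547973-134547994, both on the plus strand within the transcript LOC102555254. miR-341 lies at chr6:134347871-134347891 on the plus strand, outside any other annotated gene. All 3 belong to the Dlk1-Dio3 imprinted locus. miR-188 lies at chrX:17919595-17919615 on the plus strand within Clcn5. miR-743a, at chrX:150444098-150444119, and miR-878, at chrX:150474263-150474284, lie close together on the minus strand. They share 18 of 22 positions, and their unscaled sham signals were 57.3099 and 57.3131, so that these probes cannot be counted as independent measurements. miR-139-3p lies at chr1:165290901-165290922 within Pde2a, miR-125a-3p at chr1:67350727-67350748 within Spaca6, miR-324-3p at chr10:55233413-55233434 within Acadvl, miR-874 at chr17:6626076-6626097 within Klhl3 and miR-193* at chr10:65170336-65170357 within Faul2, each on the plus strand. The annotation used here gives these genes as overlapping and was not used to tell exon from intron.

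The second set was higher after entrapment under every scaling, and is shown because 2 of its members share a seed and 2 are both strands of 1 precursor.
miR-21: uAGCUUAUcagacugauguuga
miR-126: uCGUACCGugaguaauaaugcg
miR-126*: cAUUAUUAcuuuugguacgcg
miR-26b: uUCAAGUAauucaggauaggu
miR-148b-3p: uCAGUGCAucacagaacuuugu
miR-152: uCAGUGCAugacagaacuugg
miR-195: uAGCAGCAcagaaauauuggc
miR-199a-3p: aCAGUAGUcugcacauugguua

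Here miR-21 lies at chr10:71902653-71902674 on the minus strand. The strands of the miR-126 precursor lie at chr3:29813219-29813240 and chr3:29813182-29813202 within Egfl7, an endothelial gene. miR-26b lies at chr9:83425723-83425743 within Ctdsp1, miR-148b-3p at chr7:136299930-136299951 within Copz1, miR-152 at chr10:82329435-82329455 within Copz2, miR-195 at chr10:55450509-55450529 and miR-199a-3p at chr13:77116294-77116315 within the span of Dnm3, all on the plus strand.

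The measure was the total gene signal of each miRNA, a background-subtracted intensity that is not normalized between arrays. The sham array was the dimmest. The 75th percentile of its signal over the 108 miRNAs detected on all soleus arrays was 409, against 737 to 1742 on the entrapment arrays. Each array was scaled to this percentile, and "scaled signal" below means the result. Before log2 was taken, values below a detection floor of 2.72 were raised to it, and "log2 difference" means entrapment minus sham after that step. The array detected 152 of 348 miRNAs with sham RNA, and 168, 157 and 134 with the RNA of entrapment 1, 2 and 3. The tissue label was borne out by its markers, since miR-1, miR-133a, miR-133b and miR-206 were detected on all 10 soleus arrays at unscaled signals of at least 1423, and the neuronal miR-9 and miR-124 and the sensory-neuron miR-183 on none. Of the miRNAs clustered with miR-183, miR-182 was detected on 2 and miR-96 on 1 of the 10, and neither on these 4 arrays. The sham array stood apart in another way. It had 26 control signals of at least 20, and 11 of them were exact repeats of a control signal found on some other array of this muscle. Of 22 control features above the floor on these 4 arrays, which hold no rat miRNA, 6 (27.3%) met the 2-fold rule used below for a lower signal and 2 (9.09%) met it for a higher one. Without the repeated control signals these counts were 2 and 2 of 11. With no scaling, 0 of the 22 met the rule for a lower signal and 5 for a higher one. The part of the array itself in the differences below was not tested, and with 1 sham array the group and the array cannot be told apart.

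Under the scaling used here more miRNAs were lower than higher in entrapped soleus, an order that turned under 5 of the 6 other scalings or sources, given further on. By a rule that asks for a 2-fold difference on each of the 3 arrays, 47 of the 173 miRNAs tested (27.2%) were lower and 19 (11.0%) were higher, 66 (38.2%) in all. The median log2 difference over all tested miRNAs was -0.37 after this scaling and 1.04 with none. limma, fitted over all 10 soleus arrays so that the lone sham array takes the spread seen in the injured groups, found 34 lower (19.7%) and 17 higher (9.83%) at a Benjamini-Hochberg adjusted p of 0.05, and 51 and 21 at an unadjusted p of 0.05. Both rules together called 34 lower (19.7%) and 15 higher (8.67%). The exceptions, miR-30c and miR-30e*, were higher on each array but fell short of 2-fold on entrapment 1. Of the 47 lower miRNAs, 27 were still detected on all 3 entrapment arrays, 13 on 1 or 2, and 7 on none. Of the 19 higher miRNAs, 7 were not detected on the sham array. The 3 entrapment arrays were close to each other, with a median SD of 0.31 in the log2 difference. That spread says nothing of the sham array, whose own Feature Extraction error was a median of 9.13% of the signal.

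**Figure D1:**
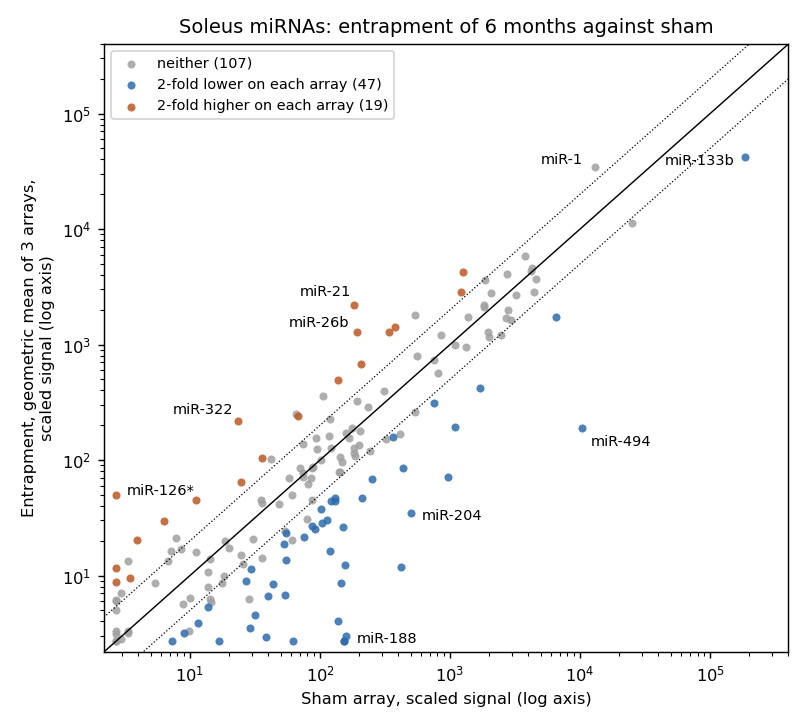
Scaled signal of each of the 173 tested miRNAs on the sham array (x, log axis) against the geometric mean of the 3 entrapment arrays (y, log axis). The solid line marks equal signal and the dotted lines 2-fold. The 47 lower miRNAs (blue) spread over the whole range of sham signal, with miR-494 far below the line among the bright ones, and miR-21 and miR-126* lie far above it among the 19 higher ones (orange).

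Among miRNAs detected on all 4 arrays, miR-494 had the largest loss. Its scaled signal was 10287 on the sham array, with an error of 821, and 209.5, 187 and 173 on entrapment 1, 2 and 3, a mean of 190 ± 18.5 (SD, n = 3). The entrapment arrays lay close together and far below sham, 54.4-fold on the geometric mean. The log2 difference was -5.76 (adjusted p = 0.000248 from limma, standard error 0.64).

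miR-494 is a member of the Dlk1-Dio3 locus, a long run of imprinted miRNAs on chromosome 6 that are expressed from the maternal chromosome and are abundant in embryonic and regenerating tissue. Of its 48 miRNAs on the array, 16 were tested. Of the 16, 10 fell, both by the fold rule and in limma, and 0 rose, beside 27.2% lower by fold and 19.7% in limma of all tested miRNAs, with a median log2 difference of -2.55 beside -0.37 for all tested miRNAs. miR-329 went from 146 on sham to 9.05, 6.76 and 10.6 after entrapment (log2 difference -4.08 ± 0.33, SD, adjusted p = 0.00403), and was detected on 2 of the 3. miR-127, near the start of the run, went from 119 to 28.9, 11.5 and 13.2 (-2.86 ± 0.72, adjusted p = 0.00865). miR-136 went from 209 to 77.2, 37.2 and 36.3 (-2.15 ± 0.62, adjusted p = 0.0226). In each of these the 3 entrapment arrays lay below sham, and entrapment 1 was the highest for miR-127 and miR-136. miR-341 was detected on sham at 38.8 and on no entrapment array, and was at least 10.6-fold lower.

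The other members that fell were miR-376a, miR-337, miR-411, miR-410 and miR-300-3p, by -3.07 to -2.52 on the log2 scale. Leaving out entrapment 2 or entrapment 3 took the adjusted p of miR-136, miR-300-3p, miR-337 and miR-411 above 0.05, to between 0.0571 and 0.107 in limma, and that of miR-337 also rose above it without entrapment 1 or any 1 of the denervation arrays. The 6 tested members that did not pass were miR-379, at -2.18 ± 1.26, miR-409-3p, miR-434, miR-487b, miR-539 and miR-299, at -1.35 to -0.02. All 16 members had a mean below 0. The summed scaled signal of the locus was 11390 on sham and 346 to 575 on the entrapment arrays, with most of the sham sum from miR-494. The median of the locus stayed below that of all tested miRNAs under each scaling, at -0.92 beside 1.04 with no scaling and at -0.36 beside 1.67 with the authors' processed values. Of the members that fell, only miR-494, miR-329 and miR-341 kept the fold call under every scaling.

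Some miRNAs of the X chromosome were lower too. miR-188, miR-532-5p and miR-500 come from within Clcn5, a chloride-proton exchanger gene. miR-188 was detected on sham at 159, with an error of 12.8, and on no entrapment array, where its scaled signal was at most 3.74, and it was at least 42.4-fold lower (adjusted p = 1.4e-05 from limma). miR-532-5p went from 53.3 to 22.2, 17.5 and 16.8, a log2 difference of -1.51 ± 0.22 (adjusted p = 0.0177, and 0.0508 or 0.052 without entrapment 3 or entrapment 2). miR-500 was lower by the fold rule, at -1.46 ± 0.14, and did not pass limma (adjusted p = 0.125). These were the 3 tested of 5 Clcn5 miRNAs, all lower by the fold rule, beside 27.2% of all tested miRNAs. Their median of -1.51 turned to 0.12 with no scaling and to 0.68 with the processed values, beside 1.04 and 1.67 for all tested miRNAs. From the cluster linked to Fmr1, of which 2 of 10 miRNAs were tested, both miR-743a and miR-878 had 153 on sham and were undetected after entrapment. Each was at least 45.4-fold lower (adjusted p = 3.01e-05 for both), and the likeness of their sequences, shown above, makes this 1 observation rather than 2. Both lay below the floor on all 3 entrapment arrays, so raising them to it left no spread there. Their p-values, like that of miR-188, may therefore be too small. The part of the X chromosome in these calls was not tested. Of the other tested miRNAs with 1 mapped place on it, miR-542-3p and miR-652 were lower and miR-672 was higher. Over all tested miRNAs 27.2% were lower and 11.0% higher. There miR-98, miR-221, miR-223, miR-361, miR-374, miR-505 and miR-542-5p were not called.

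Several miRNAs outside these clusters fell as far. miR-139-3p, from a precursor within the phosphodiesterase gene Pde2a, went from 419 to 20.8, 29.6 and 1.69. It was detected on 1 entrapment array (adjusted p = 0.0177). miR-125a-3p went from 138 to 7.70, 3.21 and 2.74 and was also detected on 1 entrapment array (adjusted p = 0.00472). For both of these the fitted size rests in part on signals that were not detected. miR-874 was detected on sham at 62.1 and on no entrapment array, at least 18.4-fold lower (adjusted p = 1.73e-05).

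Others were still detected on all 3 entrapment arrays. miR-324-3p, from within the mitochondrial acyl-CoA dehydrogenase gene Acadvl, went from 967 to 74.4, 59.2 and 84.7 (-3.75 ± 0.26, adjusted p = 0.000383). miR-320 went from 154 to 15.5, 13.4 and 9.10 (-3.64 ± 0.40, adjusted p = 0.000514). miR-204, from within the cation channel gene Trpm3, went from 504 to 42.0, 31.4 and 32.7 (-3.85 ± 0.23, adjusted p = 0.0101). For all 3, every entrapment array lay far below sham, and the smallest single log2 difference was -3.32, that of miR-320 on entrapment 1. miR-365 went from 1092 to 139, 161 and 327, lower by the fold rule at -2.49 ± 0.66 and short of the limma threshold (adjusted p = 0.0915).

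For some of these the deposited sources do not hold the same value. In the authors' processed table each array's scanner signals appear divided by 1 number, but 13 values on these 4 arrays, from 7 miRNAs, depart from that by more than 1%. In it the sham value of miR-139-3p is 2.91 times and that of miR-329 2.68 times the scanner value, that of miR-204 is 0.628 times it, and the values of miR-139-3p on entrapment 1 and 2 are under 0.1 times it. All 3 stayed lower with the processed points in place. Which source is right cannot be told from the files.

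**Figure D2:**
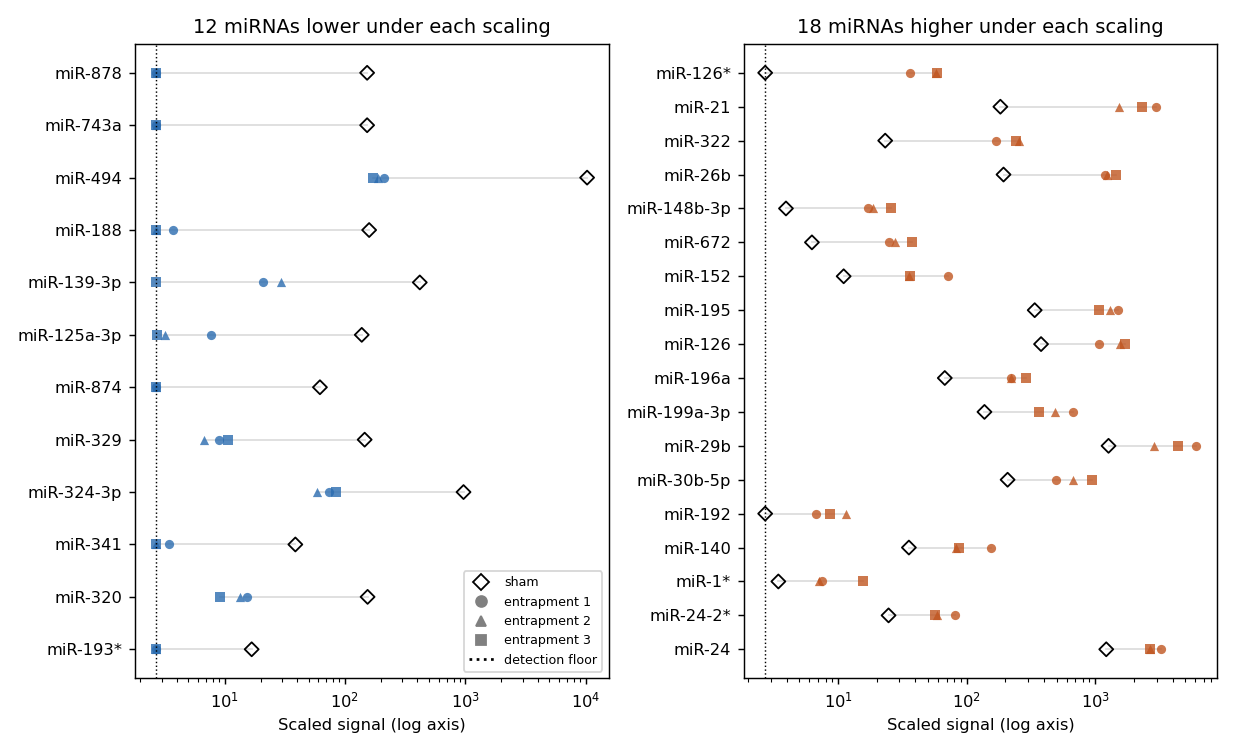
Scaled signal (log axis) of the 12 miRNAs that were at least 2-fold lower than sham on each entrapment array under every scaling (left) and the 18 that were higher under every scaling (right). Open diamonds are the sham array, filled symbols are entrapment 1 (circle), 2 (triangle) and 3 (square), and the dotted line is the detection floor of 2.72, at which lower values are drawn. Among the lower ones 6 have at least 2 entrapment arrays at the floor, while miR-494, miR-324-3p, miR-320 and miR-329 remain above it.

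Among the muscle miRNAs the miR-133 pair was lower. miR-133a and miR-133b share the seed UUGGUCC and are known to hold back muscle differentiation and favour myoblast growth. miR-133b had a scaled signal of 184170 on sham and of 28550, 41594 and 61333 on entrapment 1, 2 and 3, a mean of 43826 ± 16505 (SD, n = 3). It fell by 2.14 on the log2 scale (standard error 0.48, adjusted p = 0.0119 from limma). miR-133a went from 6537.5 to 1212, 1788 and 2436, lower by the fold rule at -1.91 ± 0.50 (SD), but with an adjusted p of 0.116. Both pairs of values had the same order, with entrapment 1 lowest and entrapment 3 highest. The scaling decides how large the loss appears. With no scaling the log2 differences were -0.28 for miR-133a and -0.51 for miR-133b, and with the processed values they turned to 0.28 and 0.05. Under quantile scaling miR-133b, the brightest miRNA on these arrays, had no difference.

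The direction of miR-1, which promotes muscle differentiation, depended on the source. In the scanner files its scaled signal was 13071 on sham and 20826, 36041 and 53235 after entrapment, a log2 difference of 1.39 ± 0.68 (SD, adjusted p = 0.276). With the processed values at the points where the sources differ, the sham signal was 128420, or 9.83 times higher, those of entrapment 2 and 3 were 18633 and 29588, and the log2 difference was -2.51, with -2.62, -2.78 and -2.12 on the 3 arrays. The scanner values place every entrapment array above sham and the processed points place every one below it, so no direction can be given for miR-1.

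miR-206, the myomiR that is richest in slow muscle and is raised when muscle is reinnervated, had 3799 on sham and 8786, 5623 and 3922 after entrapment. The log2 difference was 0.61 ± 0.58 (SD, adjusted p = 0.725), which is close to the SD between arrays, and the interval from its standard error of 1.16 spans losses as well as gains. miR-499, which is made from the slow myosin gene Myh7b, was not detected on sham and was at 5.38, 28.1 and 16.1 after entrapment (adjusted p = 0.5). Its processed values are 10 times the scanner values on each entrapment array. miR-1*, the other strand of the miR-1 precursor, was not detected on sham and was at 7.52, 7.11 and 15.7. It was 2.74-fold above its undetected sham signal and short of the limma threshold (adjusted p = 0.465). Of the 6 tested myomiRs, 2 were lower and 1 was higher by the fold rule, beside 27.2% and 11.0% of all tested miRNAs, and 1 passed limma.

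The list for muscle differentiation and muscle mass held 22 tested miRNAs, with opposite strands such as miR-24-2* and miR-29c* among them. Of the 22, 3 were lower and 4 higher by the fold rule, beside 27.2% and 11.0% of all tested miRNAs. The limma counts were 2 and 2. The median of the 22 was -0.19 and lay above 0 under each other scaling. All 3 lower ones were the miR-181 family, which share the seed ACAUUCA and are induced as myoblasts differentiate. miR-181a went from 365 to 169, 141 and 166 (-1.21 ± 0.14), miR-181b from 104 to 30.7, 27.2 and 28.1 (-1.87 ± 0.09), and miR-181c from 43.2 to 10.7, 9.37 and 6.01 (-2.35 ± 0.44). miR-181b passed limma (adjusted p = 0.0101), and miR-181a passed (adjusted p = 0.0331) but lost the call without entrapment 2, entrapment 3 or decompression 1. miR-181c did not pass (adjusted p = 0.125). With the processed values the median of the family was 0.32, below the 1.67 of all tested miRNAs.

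Among miRNAs detected on all 4 arrays, the largest gain was that of miR-21, which is raised in activated fibroblasts and in many injured tissues. It had a scaled signal of 183 on sham, with an error of 14.8, and 2992, 1531 and 2312 on entrapment 1, 2 and 3. The mean of 2278 ± 731 (SD, n = 3) lay 12-fold above sham on the geometric scale, and the log2 difference was 3.59 (adjusted p = 0.000374 from limma, standard error 0.44). Every entrapment array lay above sham, by 4.03, 3.07 and 3.66 on the log2 scale.

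The list for fibroblasts and matrix held 9 tested miRNAs, of which 3 rose and 0 fell, beside 11.0% higher and 27.2% lower of all tested miRNAs. Its median of -0.10, here the value of the opposite strand miR-29c*, lay above 0 under each other scaling. Beside miR-21 the higher ones were miR-29b and miR-199a-3p. miR-29b, which represses collagen messages, went from 1268 to 6061, 2874 and 4420 (1.75 ± 0.54, adjusted p = 0.0382, which rose to between 0.0536 and 0.079 without entrapment 1, entrapment 3, decompression 1 or denervation 2). Its sisters with the same seed AGCACCA did not follow, with miR-29a at 0.05 ± 0.20 and miR-29c at -0.29 ± 0.24. miR-199a-3p went from 138 to 668.5, 483 and 362 (1.83 ± 0.44, adjusted p = 0.0101). miR-214, transcribed with it, was at -0.55 ± 0.56 (adjusted p = 0.525).

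Both strands of the endothelial miR-126 precursor rose. miR-126, which maintains vessel integrity, went from 379 to 1065, 1567 and 1689 (1.90 ± 0.36, adjusted p = 0.00865). miR-126* was not detected on sham and was at 36.2, 58.0 and 58.6, which is 18.3-fold above the floor and not a lower bound (adjusted p = 6.01e-05). The smooth muscle miR-145 fell instead, from 114 to 26.5, 31.5 and 33.9 (-1.90 ± 0.18, adjusted p = 0.0129), and its cluster partner miR-143 was at -0.68 ± 0.21 (adjusted p = 0.209). miR-145 kept its fold call under only 1 of the 6 other scalings. The endothelial and vascular list thus held 2 higher and 1 lower of 4, beside 11.0% and 27.2% of all tested miRNAs. In muscle homogenate, fewer cells of a type and less RNA per cell cannot be told apart.

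Other large gains were in some members of a family and not in others. miR-26b went from 194 to 1184, 1239 and 1443 (2.73 ± 0.15, adjusted p = 0.000374), while miR-26a, with the same seed UCAAGUA, was at 0.12. miR-322, which is made with miR-503 and is induced in differentiating myoblasts, went from 23.3 to 169, 255.5 and 241 (3.23 ± 0.32, adjusted p = 0.000374). miR-195 went from 338 to 1512, 1292 and 1069 (1.92 ± 0.25, adjusted p = 0.0177). These last belong to the miR-15/16 family, regulators of cell cycle entry, in which 2 of 6 tested members rose and 0 fell, beside 11.0% higher and 27.2% lower of all tested miRNAs. Of the 4 members with the seed AGCAGCA, miR-195 alone was called, with miR-15b at 1.28 ± 0.26, just short of 2-fold on 1 array, miR-497 at 0.51 ± 0.34 and miR-16 at 0.22 ± 0.24.

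miR-148b-3p and miR-152, which share the seed CAGUGCA and are known to target the DNA methyltransferase Dnmt1, both rose. Neither was detected on sham. miR-148b-3p was at 17.2, 18.6 and 25.9 after entrapment, 5.13-fold above its undetected sham signal (adjusted p = 0.0177). miR-152 was at 72.0, 35.7 and 36.1, 4.09-fold above its own (adjusted p = 0.0106). miR-196a, from a Hox cluster, went from 67.6 to 221, 221 and 289 (1.84 ± 0.22, adjusted p = 0.0123). miR-140, known from cartilage, went from 35.6 to 154, 82.3 and 86.6 (1.54 ± 0.50, adjusted p = 0.0382, lost without any 1 of the entrapment arrays, decompression 1, denervation 1 or denervation 2). miR-335 and miR-192 were not detected on sham and were 4.31-fold and 3.22-fold above the floor, which is not a lower bound (adjusted p = 0.0441 and 0.0277). Each was detected on 2 of the 3 entrapment arrays. Both lost the call without entrapment 2 or entrapment 3, and miR-335 also without entrapment 1, decompression 1 or denervation 1.

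miR-24, which is raised during myoblast differentiation, went from 1217 to 3264, 2681 and 2645 (1.23 ± 0.17), and miR-24-2* from 24.7 to 81.5, 58.5 and 57.3 (1.39 ± 0.29). Both were higher by the fold rule and neither passed limma (adjusted p = 0.111 and 0.192). The 4 other tested members of the miR-23/24/27 clusters had means of 0.25 to 0.95. miR-672 was not detected on sham and was at 24.8, 27.6 and 37.9, 4.73-fold above the undetected sham value (adjusted p = 0.135).

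The miR-30 family, which is abundant in muscle, had calls in both directions. Of its 11 members, all tested, miR-30d and miR-30c-1* were lower and miR-30b-5p was higher by the fold rule. These counts of 2 and 1 of 11 stood beside 27.2% and 11.0% of all tested miRNAs and do not set the family apart. miR-30c-1* is an opposite strand with a seed of its own, UGGGAGA. miR-30d went from 1712 to 321, 422 and 562.5 (-2.01 ± 0.40, adjusted p = 0.0369), and miR-30b-5p from 208 to 492, 666 and 937 (1.70 ± 0.47, adjusted p = 0.0483). Both limma calls were lost without entrapment 2, decompression 1 or denervation 2, that of miR-30b-5p also without entrapment 3 or decompression 3 and that of miR-30d also without entrapment 1. miR-30c was at 1028, 2104 and 2668 against 534 on sham (1.75 ± 0.72, adjusted p = 0.0465), a call lost without entrapment 2, entrapment 3, denervation 2 or any 1 of the decompression arrays.

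Among markers of blood and nerve cells, 1 of 2 erythroid, 1 of 6 leukocyte, 1 of 3 glial and 0 of 5 neuronal miRNAs tested were lower, beside 27.2% of all. The erythroid miR-144 was lower by the fold rule (-2.35 ± 0.55, adjusted p = 0.198) and its cluster partner miR-451 was at -0.52 ± 0.37 (adjusted p = 0.799). The summed signal of the pair was 1244 on sham and 494 to 855 after entrapment. Of the 6 leukocyte miRNAs, miR-142-5p alone was called (-1.99 ± 0.27, adjusted p = 0.0435, lost without any 1 of the entrapment arrays, decompression 2 or denervation 1), and the others ranged from -1.29 for miR-142-3p to 0.53. Their summed signal was 832 on sham and 477 to 588 after entrapment. Of the 19 neuronal miRNAs on the array 5 were tested and 0 were called, and miR-9, miR-124 and miR-183 were not detected on these 4 arrays. The glial miR-338* was lower (at least 2.17-fold, adjusted p = 0.0312, lost without entrapment 2, entrapment 3 or decompression 1), and miR-338 was at 0.72 ± 0.44. No epithelial, liver or pancreas miRNA of the lists was detected. The part of blood in the muscle samples was not tested.

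None of the 10 tested let-7 and miR-98 members was called, with a median of -0.16. They ranged from -1.29 for let-7d* to 0.98 for let-7b*, both opposite strands without the let-7 seed. The miR-99/100 and miR-125 families had 2 of 8 lower and 0 higher with a median of -1.14, and the miR-17-92 cluster and its paralogs, which drive proliferation, had 3 of 7 lower (miR-92a, miR-93 and miR-19a) and 0 higher with a median of -0.87, against 27.2% lower over all tested miRNAs. Both medians turned above 0 with no scaling and with the processed values. miR-92a went from 250.0 to 67.9, 60.5 and 76.2 (-1.88 ± 0.17, adjusted p = 0.0177). Neither miR-103 nor miR-107 was called.

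**Figure D3:**
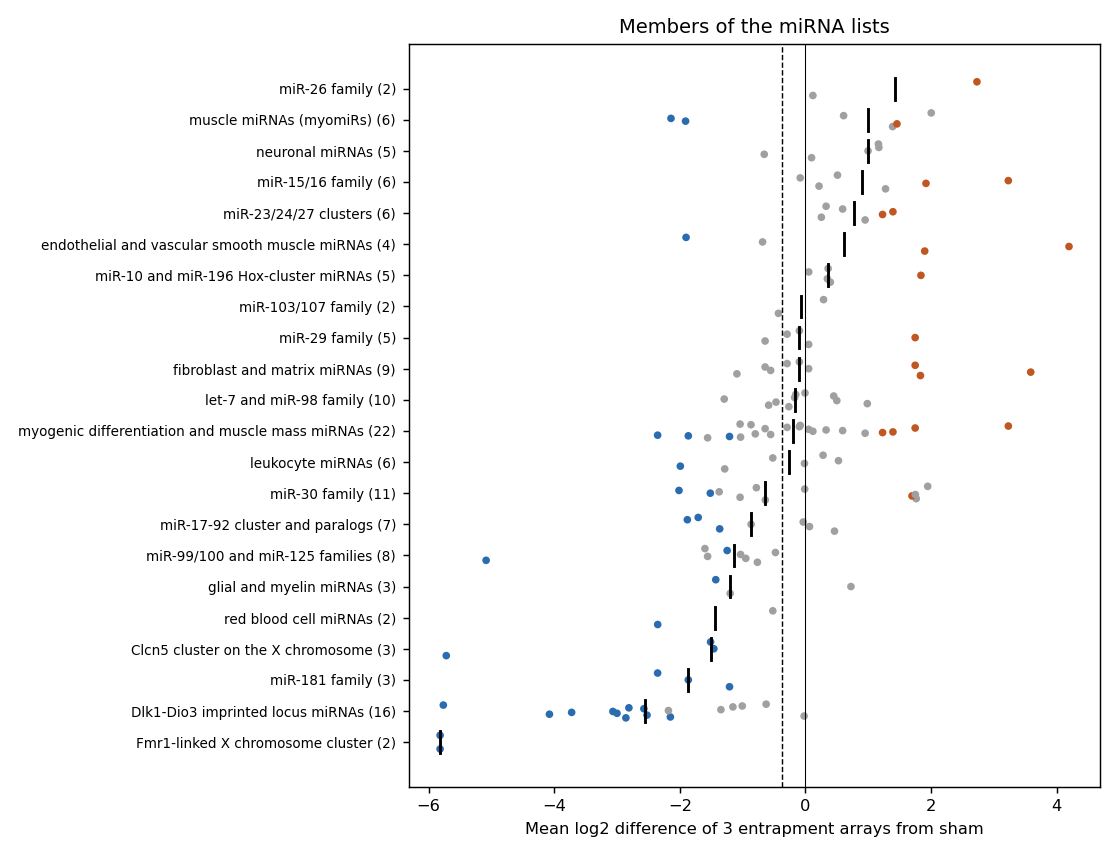
Mean log2 difference of the 3 entrapment arrays from sham for each tested member of the miRNA lists, with the number tested in parentheses. Blue points were at least 2-fold lower and orange points at least 2-fold higher on each array, grey points neither, the short black bars are list medians, the dashed line is the median of all 173 tested miRNAs at -0.37 and the solid line is 0. The members of the Dlk1-Dio3 locus lie at or left of 0, and the myomiRs lie on both sides.

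How many miRNAs were lower or higher turned on the scaling. With no scaling 13 were lower and 60 higher, with median scaling 40 and 25, with the 75th percentile of all miRNAs 21 and 40, with quantile scaling 23 and 40, with loess scaling 20 and 29, and with the authors' processed values 13 and 102. Lower calls thus made up 71.2% of all calls under the scaling used here, and 11.3% to 61.5% under the others. The median log2 difference moved with them, from -0.37 to -0.16 with median scaling and up to 1.67 with the processed values. Under all of these, 12 miRNAs were lower and 18 higher on each array, 30 of the 66 calls. The median was lowest under the scaling used here, so the other scalings mostly moved differences upward. A higher call was thus likely to be kept in advance, and its being kept says little. Only the lower calls were put to a hard check. Of the 19 higher miRNAs, miR-335 was the exception, and of the 47 lower ones 35 lost the call under at least 1 scaling. The directions given here for lower miRNAs outside the 12, miR-133a, miR-133b, miR-145 and the miR-181 family among them, are therefore relative to the miRNAs detected on all arrays.

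**Figure D4:**
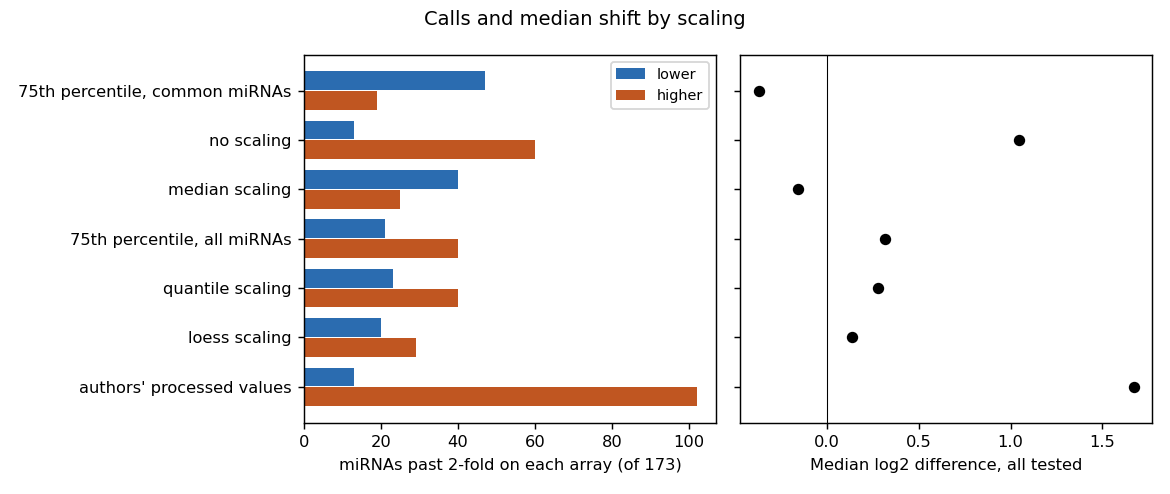
Left, number of the 173 tested miRNAs at least 2-fold lower (blue) or higher (orange) than sham on each entrapment array under each scaling. Right, median log2 difference of all tested miRNAs under the same scaling. Lower calls outnumber higher ones under the first and the median scaling, where the median is below 0, and higher ones outnumber lower ones under the other 5.

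The lower and higher miRNAs differed in base composition, which the fold rule did not use. A mature sequence was found for 149 of the 173 tested miRNAs (86.1%). The median GC content was 45.5% over these, 50% over 42 of the lower ones, and 41.9% over 16 of the higher ones. It was 59.1% over 11 of the 12 that were lower under every scaling. Of 34 tested miRNAs with more than 52% GC, 17 (50%) were lower and 1 was higher, beside 13 and 6 of the 55 with 45% to 52%, 7 and 7 of the 45 with 36% to 45%, and 5 and 2 of the 15 with at most 36%. Over all tested miRNAs 27.2% were lower, and the lower share thus did not follow GC content evenly across these ranges. The contrast is visible in the sequences above, where miR-874 has 77.3% GC and miR-26b 33.3%. The base composition of a miRNA also affects how it binds its probe, and its part in these differences was not tested.

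The strands of a precursor are made together, and 23 pairs had both strands tested. In 1 pair, miR-126 and miR-126*, both strands were called, in the same direction. In 13 pairs only 1 strand was called, in 9 neither, and in 0 did they go in opposite directions. Over all tested miRNAs 38.2% were called in either direction, and these counts alone do not set strand pairs apart. In 13 pairs the strands differed by more than 2 on the log2 scale. miR-139-5p was at 0.20 beside -5.14 for miR-139-3p, miR-125a-5p at -0.95 beside -5.08 for miR-125a-3p, and miR-324-5p at -0.20 beside -3.75 for miR-324-3p. The 5p strand of these 3 was thus not called, miR-139-5p being detected on 1 of the 4 arrays, and the sizes for miR-139-3p and miR-125a-3p rest in part on the floor. miR-193 was at 0.76 beside -2.63 for miR-193*, which was detected on no entrapment array and was at least 4.98-fold lower (adjusted p = 0.000591). In the other direction, miR-199a-5p was at -1.09 beside 1.83 for miR-199a-3p and miR-322* at -0.08 beside 3.23 for miR-322.

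**Figure D5:**
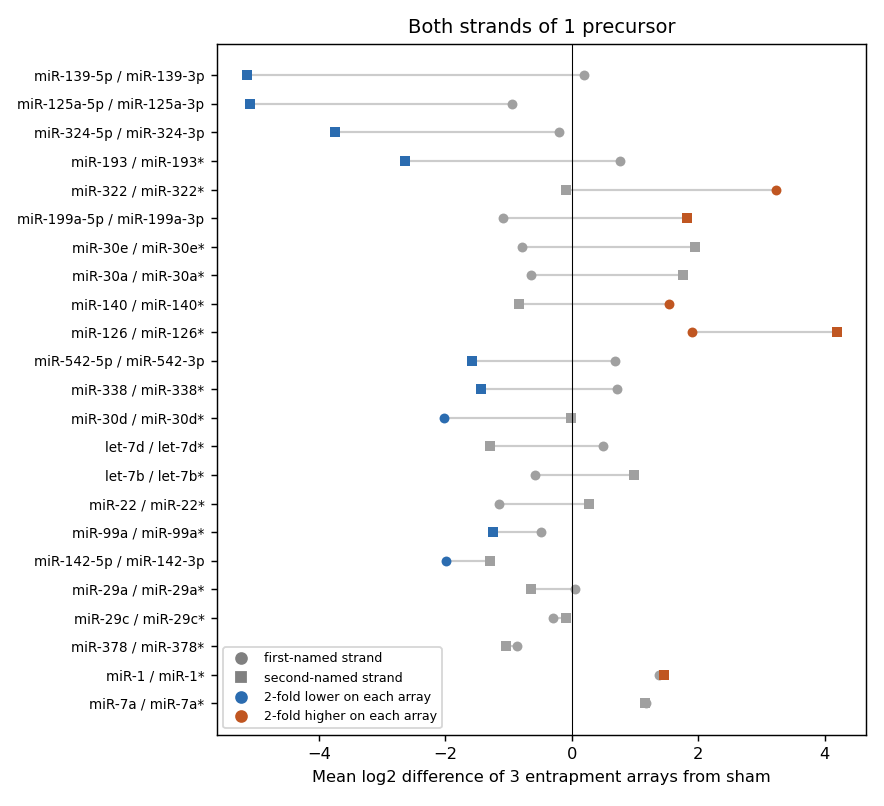
Mean log2 difference of the 3 entrapment arrays from sham for both strands of 23 precursors, joined by a line and ordered by the distance between them. Circles are the first-named and squares the second-named strand, blue is at least 2-fold lower and orange at least 2-fold higher on each array. The lines are longest for miR-139, miR-125a and miR-324, and the strands of miR-126 alone are both called.

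Set against the other injuries without the sham array, entrapment had no limma call against decompression and 20 calls against denervation. limma found 0 of 173 miRNAs lower and 0 higher after entrapment than after decompression, and 0 and 6 at an unadjusted p of 0.05. The log2 differences of entrapment from decompression were -0.12 (standard error 0.46) for miR-494 and 0.35 (standard error 0.31) for miR-21. A p above the threshold does not show that both groups are alike. Against denervation, 20 miRNAs (11.6%) were lower and 0 were higher in limma. Of the fold calls against sham, 13 were among these, led by miR-125a-3p, miR-466b, miR-188, miR-878 and miR-743a. The 20 lower than denervation became 7 without entrapment 2, 9 without entrapment 3 and 32 without denervation 3. They became 0 with no scaling, with loess scaling and with the processed values. miR-21 did not differ detectably from denervation (0.31, standard error 0.31, adjusted p = 0.616), nor did miR-133b (-0.15, standard error 0.34, adjusted p = 0.861). The decompression and denervation groups are compared with the same sham array, and their log2 differences from it were -5.65 and -4.08 for miR-494, 3.23 and 3.28 for miR-21 and -1.75 and -1.99 for miR-133b.

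The fold rule draws a sharp line through a continuous range. Just inside it were miR-99a*, whose smallest difference on any array was 1.03 on the log2 scale, miR-331 at 1.05 and miR-1* at 1.05. Just outside were miR-30c-2* at 0.99, miR-15b and miR-30e* at 0.97 and miR-142-3p at 0.97. In all, 92 tested miRNAs were lower and 53 were higher on each of the 3 arrays at any size.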

How the data were processed

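Total RNA of soleus was hybridized to Agilent rat miRNA arrays holding 350 rat miRNAs. The labels describe amplification with Cy3-CTP and the Methods a ligation of pCp-Cy3. The scanner output deposited by the authors came from Agilent Feature Extraction 9.5.3 and gave, per miRNA, a total gene signal (a linear, background-subtracted intensity summed from its probes), the error of that intensity, and a detection call of 0 or 1. A processed table deposited by the authors holds 1 further signal per miRNA and array. The Methods name a rank-consistency LOWESS without its reference. The table's 10 columns for dorsal root ganglia were not used here.

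The members and the lists of miRNAs were chosen with earlier results of these data known. Each list took in every strand of its miRNAs on the array, also where the seed differs. Signals were scaled array by array so that the 75th percentile of the 108 miRNAs found on all 10 soleus arrays was equal, values below the floor of 2.72 (the median over arrays of the lowest scaled detected signal) were raised to it, and log2 was taken. A miRNA was tested when detected on at least 3 of the 10 arrays, and 2 miRNAs whose name changed between files were dropped. limma 3.58.1 (lmFit, eBayes, two-sided, Benjamini-Hochberg, R 4.3.3) had the group as its only term, 6 residual and 3.07 prior degrees of freedom, so that sham borrows the spread of the other groups. p-values measure the spread between arrays, which the labels call experimental replicates. Values raised to the floor show no spread, so p-values of miRNAs below it on several arrays may be too small. For a miRNA not detected in 1 group, the fold was taken against, per array, the highest of the floor, that array's lowest detected signal and the miRNA's own signal. It is given as a bound where the entrapment arrays were the undetected group. On the sham array the lowest detected scaled signal was -5.09, so folds for miRNAs not detected on sham rest on the floor or their own signal. On denervation 3, of like brightness, it was 9.26. Folds against an undetected sham signal may therefore be overstated and are not given as bounds. Named were the 12 largest changes in each direction past both rules, those called under every scaling, miR-1, miR-133a and miR-206, members of the lists, and miRNAs next to the fold threshold. miR-365, miR-466b and the strand partners outside the lists were named after their values were seen. The scripts were tested on simulated data. Alternatives were 6 other scalings or sources, 2 other filters, no floor, the mean of the arrays, an intensity trend, fewer arrays, a replicate block and each array left out in turn. The processed values at single points, and all alternatives for the comparison with denervation, were chosen after the data were seen. No slide or scan batch could be set apart from the files. The number of arrays limits the precision. Python 3.11.15 and matplotlib 3.10.9 made the figures.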

Additional observations from a re-analysis of the deposited data

Results flagged for a closer look

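For 7 of the miRNAs named above, the difference from sham after entrapment was not the same as after denervation when both groups were compared directly in limma, which does not use the sham array. On the log2 scale, entrapment minus denervation was -2.77 for miR-125a-3p, -2.30 for miR-188, -2.27 for miR-878, -2.19 for miR-743a, -1.69 for miR-494, -1.42 for miR-874 and -1.03 for miR-126*. The adjusted p-values of miR-188, miR-743a, miR-874 and miR-878 were 0.000974, 0.00375, 0.00375 and 0.00371 and stayed under 0.05 with each of the 9 injury arrays left out in turn, reaching 0.00892 for miR-188 and 0.0238 for the other three at most. None of these 4 was detected on any entrapment array, so that the sizes rest on the detection floor. Raising values to the floor also takes away spread, so the adjusted p-values of these 4 may be too small. Those of miR-494 (0.042), miR-126* (0.0393) and miR-125a-3p (0.028) passed 0.05 when 8, 7 and 3 of the 9 arrays were left out, entrapment 2, entrapment 3 and denervation 2 among them for each. The other settings took the adjusted p of miR-188 to as much as 0.569, that of miR-874 to 0.512 and those of miR-743a and miR-878 to 0.179. miR-188 lost the call in 3 of 11 settings and the other three in 4 of 11. The adjusted p of miR-125a-3p, miR-126* and miR-494 reached 0.995. Their calls were lost in 7 of 11, 9 of 11 and 9 of 12 settings.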

How the results depend on the processing

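The number of miRNAs at least 2-fold lower and higher than sham, 47 and 19, was 13 and 60 with no scaling, 21 and 40 with the 75th percentile over all miRNAs, 23 and 40 with quantile scaling, 20 and 29 with loess scaling and 13 and 102 with the authors' processed values. It was 72 lower with no filter, 23 and 12 over miRNAs detected on all 10 arrays, and 30 higher by the mean of the arrays. Leaving out each entrapment array in turn gave 47 to 56 lower and 19 to 26 higher. The rule asks for 2-fold on each array, so fewer arrays can only keep or raise these counts. They therefore do not show how stable the calls are.

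In limma the counts against sham, 34 lower and 17 higher, fell to 6 lower with no scaling, 12 lower with loess scaling and 1 and 1 with the processed values. They were 16 and 33 with the 75th percentile over all miRNAs, 17 and 28 with quantile scaling, 11 higher with no filter, 16 lower over miRNAs detected on all 10 arrays and 9 higher with only the entrapment and sham arrays. Leaving out each array in turn gave 21 to 48 lower and 10 to 22 higher, with 21 and 12 without entrapment 2, 24 and 10 without entrapment 3, and 30 and 11 without decompression 1. Of the 51 limma calls, 31 held with every array left out in turn. With the replicate number as a block, the counts were 17 and 10 against sham and 11 lower against denervation. Samples with the same number did not deviate together (correlations of -0.469 to 0.206), so the numbers were not taken to pair the samples.

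The 20 lower and 0 higher against denervation became 0 lower with no scaling, with loess scaling and with the processed values, 10 and 14 with the 75th percentile over all miRNAs, 6 and 5 with quantile scaling and 10 and 1 over miRNAs detected on all 10 arrays. With median scaling, no filter, an intensity trend or the processed points, 1 was higher. Leaving out each array in turn gave 7 to 32 lower and 0 to 6 higher.

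For 37 miRNAs, those with the largest changes past both rules, those called under every scaling, and miR-1, miR-133a and miR-206, each was recomputed alone, and 4 of 574 values turned direction. Other named miRNAs were not recomputed one by one, and the miR-181 family's median turned from -1.87 to 0.32 with the processed values. With the processed values the log2 difference was -0.32 for miR-1, 0.28 for miR-133a and 0.049 for miR-133b, and with the processed points it was -2.51 for miR-1. Of the others, 475 kept their side of the threshold, 85 lost it and 10 gained it. The causes were not tested. The single sham array has no replicate of its own, its signal is the dimmest, and miRNAs near the detection floor have no exact fold.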
